A study of Mus musculus with 9 samples.

Results

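MHC class II presentation genes encode the machinery by which antigen-presenting cells show peptides of engulfed material to CD4+ T cells. The 10 genes described here were taken from a list of the pathway that was written with earlier results of these data known. They are *H2-Aa*, *H2-Ab1*, *H2-Eb1*, *Cd74*, *H2-DMa*, *H2-DMb1*, *H2-DMb2*, *H2-Oa*, *H2-Ob* and *Ciita*. All 10 were found by symbol among the 53801 genes of the count files, and all 10 passed the filter on low counts in each comparison. They were measured in monocytes/macrophages sorted as CD11c-Ly6G-CD11b+CD45high from male C57BL/6J mice 9 weeks of age, in 3 groups of 3 libraries. The stroke brain libraries came from the ipsilesional hemisphere 5 days after permanent focal ischemia (dMCAO, in which the distal middle cerebral artery and the common carotid artery of the left side are closed), each from cells pooled from 5 mice. The stroke blood libraries came from the peripheral blood after dMCAO, and the sham blood libraries from the blood of sham-operated mice, each from 1 mouse. The day of sham blood collection was not given in the sources used here. Tissue, dissociation and pooling differ together between brain and blood, so these cannot be told apart. Brain cells went through tissue dissociation and a Percoll gradient, and blood cells through Ficoll. A brain SD or range lies between pools of 5 mice and a blood SD or range between single mice, so their sizes are not comparable.

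The classical molecules are pairs of an alpha and a beta chain. *H2-Aa* and *H2-Ab1* encode the chains of I-A, and *H2-Eb1* encodes the beta chain of I-E. *Cd74* encodes the invariant chain, which fills the peptide groove and carries new molecules to the endosome, where proteases trim it down to a short remnant. The H2-DM dimer (*H2-DMa* with *H2-DMb1* or *H2-DMb2*) exchanges that remnant for antigen peptides, and the H2-O dimer (*H2-Oa* and *H2-Ob*), known mainly from B cells and some dendritic cells, holds H2-DM back. *Ciita* encodes the transactivator that the promoters of these genes depend on, and it is induced by interferon gamma in macrophages. CIITA does not bind DNA itself but is recruited by factors bound to an X box and a Y box shortly before the start of each gene.

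Those boxes are shown for the members whose promoter window was at hand, because this layout is what places a gene under *Ciita*, itself a member. RefSeq promoter windows of GRCm38.p6 around the start of each gene were matched by symbol for 7 of the 10 members; *H2-Ab1*, *Cd74* and *Ciita* had no match. Letters searched were GCAAC (core of the X1 box), TGACGTCA (a cyclic AMP element at the X2 position) and TGATTGG (the Y box, an inverted CCAAT). A longer X form (CT, 3 free bases, AAC, 2 free bases, then ATGATG), which can contain the core, was searched too. All were chosen after the windows were read. Shares over all windows, and the search for an X and Y pair, used both strands. Single matches in the members were counted on the strand of the gene only. Printed 5′ to 3′ on the strand of the gene, with matches in capitals, the stretches around the boxes were as follows.
H2-Aa: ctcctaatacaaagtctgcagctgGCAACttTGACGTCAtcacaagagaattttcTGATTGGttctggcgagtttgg
H2-Eb1: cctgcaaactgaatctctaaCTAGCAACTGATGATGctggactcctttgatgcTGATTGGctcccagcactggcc
H2-DMb2: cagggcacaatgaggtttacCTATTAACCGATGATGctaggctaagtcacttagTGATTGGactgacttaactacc
H2-Oa: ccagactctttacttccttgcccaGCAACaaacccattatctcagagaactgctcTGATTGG
H2-Ob: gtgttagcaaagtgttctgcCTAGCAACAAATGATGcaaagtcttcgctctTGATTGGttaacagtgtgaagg

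On chromosome 17 of GRCm38.p6 these lie at chr17:34287852-34287928 (minus strand, *H2-Aa*), chr17:34305753-34305827 (*H2-Eb1*), chr17:34145103-34145178 (*H2-DMb2*), chr17:34092279-34092340 (*H2-Oa*) and chr17:34238795-34238867 (*H2-Ob*), the last 4 on the plus strand. All lie upstream of the RefSeq start site. The stretch of *H2-DMb2* lies within the gene span used for counting, which starts at 34143307, so it may not describe the promoter of the counted transcript. That of *H2-Oa* ends at the first base of its span, 34092340. The X form of *H2-DMb1*, CTAGTAACTGATGATG, has its core position 31 bases before its Y box, as in *H2-DMb2*, and lies in an exon annotated by GENCODE. In these 6 genes the core, or the same position of the longer form, began between 28 and 31 bases before the Y box. An X1 core or longer form up to 60 bases before a Y box was found in 150 of all 32851 windows (0.457%). The X1 core was found in 35.2% of windows, the longer form in 0.03%, the Y box in 7.82% and the cyclic AMP element in 1.79%. The stretch of *H2-Oa* held the core without the longer form or the cyclic AMP element. The 2 windows of *H2-DMa* held none of these letters on the strand of the gene. They stand at start sites upstream of the gene span used for counting, so they do not describe the promoter of the counted transcript.

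Levels are given as counts scaled to a common library total (CPM, the usual per-million unit); total counts ranged from 18475118 to 22623578 per library, and 3 counts corresponded to between 0.133 and 0.162 CPM. Groups were compared with the quasi-likelihood test of edgeR across all genes after TMM scaling, and a gene was taken as a differentially expressed gene (DEG) where its log2 fold change passed 1 in size and its p, adjusted after Benjamini and Hochberg, was below 0.05. Each adjusted p is that of edgeR unless another test is named. Exact permutation of 3 and 3 libraries cannot reach a two-sided p below 0.1, so no such test was run on single values. The libraries are bulk RNA, in which fewer cells of a type and less RNA per cell cannot be told apart. The comparisons of brain with stroke blood and of stroke blood with sham blood share the stroke blood libraries, and both comparisons of the brain share the brain libraries, so their values are given side by side and are not independent of each other.

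In the brain, 9 of the 10 members rose relative to stroke blood and 0 fell, where 13.1% of the 13189 genes tested rose and 7.86% fell (21% in all). The same 9 did not overlap between the groups, as was so, in the higher direction, for 31.9% of genes. Their median log2 fold change was 2.01, against 0.06 over all genes tested. Relative to sham blood 7 of 10 rose, where 9.75% of 13020 genes rose and 3.67% fell (13.4% in all), with a median of 1.93 against 0.01 over all genes. All 10 lay higher without overlap there, against 27.4% of genes. Between stroke and sham blood 0 of 10 were DEGs, and 4 of the 10 had an unadjusted p below 0.05 (*H2-Oa*, *H2-Ob* and *H2-DMb2* with lower and *H2-DMb1* with higher values in stroke blood), as did 1581 of all 12664 genes tested; in this comparison a single gene of 12664 (0.0079%) was a DEG, *Serpinb10*, named here after its value was seen, while DESeq2 called 135. Together the 10 genes took 2.77% ± 0.446 (SD, n = 3) of all counts in the brain libraries, 0.609% ± 0.180 in stroke blood and 0.481% ± 0.170 in sham blood.

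**Figure D1:**
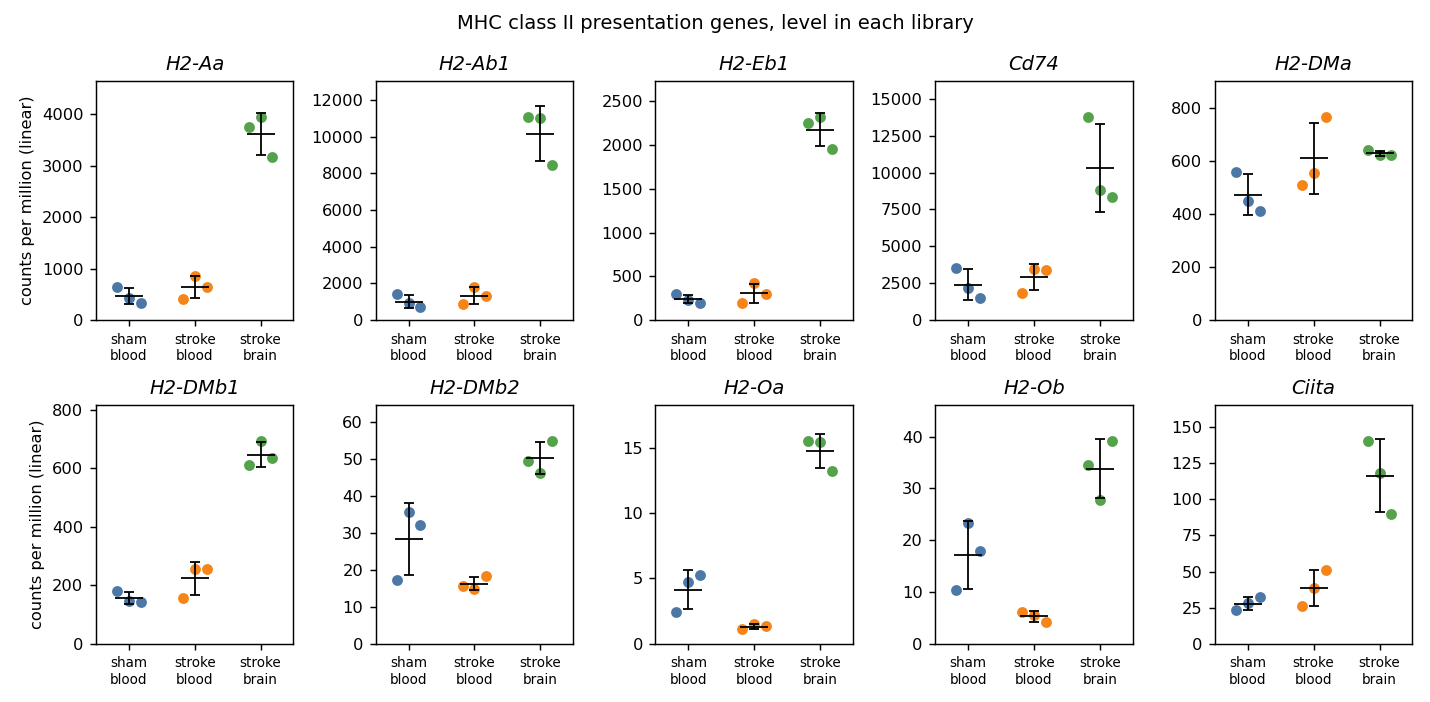
Level of each of the 10 genes in CPM (linear axis from 0, a scale of its own in each panel) in the 3 libraries of each group; points are libraries, and the bar and whiskers are the mean and SD (n = 3). The brain libraries lie above all blood libraries in 9 panels, and for *H2-DMa* the highest library is from stroke blood, at 764 CPM.

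Along with *Cd74*, the 3 class II chain genes had the highest levels in the brain. *H2-Ab1* (ENSMUSG00000073421, chromosome 17 of GRCm38, 34263209 to 34269418) was at 1394, 933 and 700 CPM in sham blood, at 855, 1825 and 1334 CPM in stroke blood, and at 11051, 11004 and 8458 CPM in the brain. The 2 blood groups overlapped, and the lowest brain library stood far above the highest blood library. The log2 fold change of the brain was 2.77 (standard error 0.28, adjusted p = 0.000162) over stroke blood and 3.21 (standard error 0.28, adjusted p = 0.000599) over sham blood, or 6.83-fold and 9.25-fold.

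*H2-Aa* (ENSMUSG00000036594, chromosome 17, 34282744 to 34287827) encodes the partner of that chain. Its libraries were at 641, 434 and 339 CPM in sham blood, 419, 856 and 639 CPM in stroke blood, and 3749, 3939 and 3169 CPM in the brain. It rose by 2.35 on the log2 scale over stroke blood (standard error 0.25, adjusted p = 0.000247) and by 2.82 over sham blood (standard error 0.25, adjusted p = 0.000682). *H2-Eb1* (ENSMUSG00000060586, chromosome 17, 34305877 to 34316199) was at 295, 233 and 196 CPM in sham blood, 190, 418 and 302 CPM in stroke blood, and 2254, 2316 and 1960 CPM in the brain. Its log2 fold changes were 2.69 (standard error 0.27, adjusted p = 0.000164) and 3.05 (standard error 0.19, adjusted p = 0.000223). In all 3 chain genes the order of libraries within a group was alike in blood: sham blood replicate 1 was the highest and replicate 3 the lowest of its group, and stroke blood replicate 2 was the highest and replicate 1 the lowest. C57BL/6 mice carry a defective gene for the E alpha chain and do not form I-E, so *H2-Eb1* transcript stood here without its partner: *H2-Ea-ps*, the annotated remnant of that gene, had 0 counts in each of the 9 libraries, which allows at most 0.162 CPM in the shallowest of them.

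*Cd74* (ENSMUSG00000024610, chromosome 18, 60803848 to 60812646), the invariant chain, was the most abundant member in both blood groups. It was at 3545, 2146 and 1464 CPM in sham blood, 1866, 3476 and 3394 CPM in stroke blood, and 13731, 8812 and 8324 CPM in the brain. Brain replicate 1 thus stood apart from the others, and the lowest brain library was still more than the highest blood library. *Cd74* rose by 1.66 over stroke blood (standard error 0.28, adjusted p = 0.00255) and by 1.98 over sham blood (standard error 0.35, adjusted p = 0.00834). The chain genes had larger log2 fold changes, and the balance of *Cd74* to *H2-Ab1* within a library is given below.

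The H2-DM genes did not move as a unit. *H2-DMa* (ENSMUSG00000037649, chromosome 17, 34135182 to 34139101), the alpha chain, was at 559, 448 and 412 CPM in sham blood, 511, 554 and 764 CPM in stroke blood, and 641, 624 and 622 CPM in the brain. The brain libraries lay within the range of stroke blood. The log2 fold change was -0.12 over stroke blood (standard error 0.18, adjusted p = 0.668), which turned to 0.05 with scaling by library size only and to 0.08 without stroke blood replicate 3, and 0.29 over sham blood (standard error 0.15, adjusted p = 0.22).

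*H2-DMb1* (ENSMUSG00000079547, chromosome 17, 34153072 to 34160230), the main beta chain, was at 181, 146 and 142 CPM in sham blood, 158, 257 and 255 CPM in stroke blood, and 611, 693 and 635 CPM in the brain. It rose by 1.38 over stroke blood (standard error 0.21, adjusted p = 0.00133) and by 1.92 over sham blood (standard error 0.15, adjusted p = 0.000451). *H2-DMb2* (ENSMUSG00000037548, chromosome 17, 34143307 to 34151553), the second beta chain gene, was far lower, at 17.4, 35.7 and 32.0 CPM in sham blood, 15.5, 14.9 and 18.2 CPM in stroke blood, and 49.5, 46.3 and 54.8 CPM in the brain. It rose by 1.47 over stroke blood (standard error 0.19, adjusted p = 0.000586), and its log2 fold change over sham blood was 0.71 (standard error 0.26, adjusted p = 0.096), with the groups not overlapping. The genes are close copies: 254 of the 75-base windows of their transcripts were shared, 15.8% of those of *H2-DMb1* and 14.6% of those of *H2-DMb2*. At a read length of 75 bases part of the reads could therefore have been split or dropped between them, and their separate values are uncertain.

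The genes of the H2-O dimer had the lowest mean CPM of the members in every group. *H2-Oa* (ENSMUSG00000024334, chromosome 17, 34092340 to 34095234) was at 2.43, 4.70 and 5.25 CPM in sham blood, 1.11, 1.48 and 1.35 CPM in stroke blood, and 15.5, 15.5 and 13.2 CPM in the brain. The 3 groups did not overlap, with stroke blood the lowest and the brain the highest. *H2-Ob* (ENSMUSG00000041538, chromosome 17, 34238903 to 34245907) was at 10.3, 23.3 and 17.9 CPM in sham blood, 6.13, 5.57 and 4.10 CPM in stroke blood, and 34.4, 27.8 and 39.1 CPM in the brain, in the same order of groups and again without overlap.

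Over stroke blood, *H2-Oa* rose by 3.33 in the brain (standard error 0.30, adjusted p = 9.52e-05), the largest log2 fold change among the members, and *H2-Ob* by 2.53 (standard error 0.25, adjusted p = 0.000147). Over sham blood *H2-Oa* rose by 1.72 (standard error 0.32, adjusted p = 0.0107), and *H2-Ob* did not pass the test (log2 fold change 0.86, standard error 0.29, adjusted p = 0.079). Between stroke and sham blood the log2 fold change was -1.60 for *H2-Oa* (standard error 0.41) and -1.66 for *H2-Ob* (standard error 0.32), each with an adjusted p of 0.285 in edgeR. DESeq2 called both lower, with an adjusted p of 0.0393 for *H2-Oa* and 0.00034 for *H2-Ob*. edgeR called *H2-Ob* when no filter on low counts was used (adjusted p = 0.00149) and without sham blood replicate 1 (adjusted p = 0.0415), the sham library in which both genes were lowest. These were the only 2 of the 10 members whose stroke and sham blood libraries did not overlap; of all genes tested, 10.5% were lower and 8.23% higher in stroke blood without overlap. *H2-Oa* had only 23 to 32 counts in a stroke blood library, and its exons overlap *BC051537* on the opposite strand, so that without a stated strand setting the reads of the pair cannot be told apart.

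*Ciita* (ENSMUSG00000022504, chromosome 16, 10480059 to 10528418) was at 23.1, 28.0 and 32.2 CPM in sham blood, 26.4, 38.4 and 51.4 CPM in stroke blood, and 140, 118 and 89.9 CPM in the brain. It rose by 1.42 over stroke blood (standard error 0.27, adjusted p = 0.00398) and by 1.94 over sham blood (standard error 0.21, adjusted p = 0.00137). *Ciita* is transcribed from several promoters that differ between cell types, and counts per gene do not separate them. Some of its exon sequence overlaps *Dexi* on the opposite strand.

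**Figure D2:**
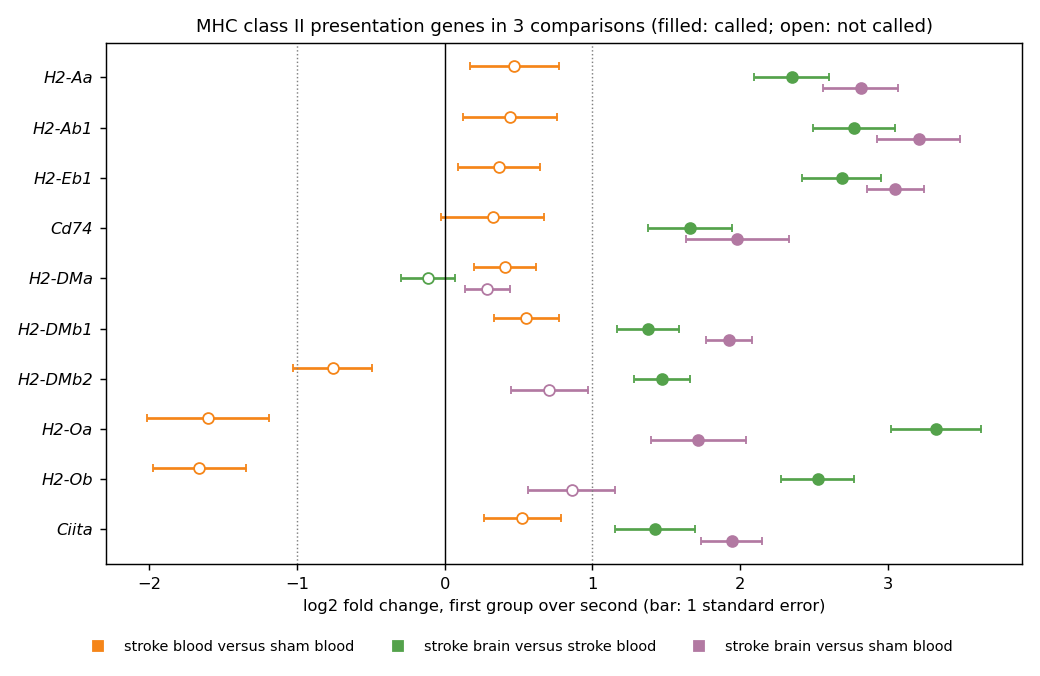
Log2 fold change of each gene (horizontal axis, first group over second; bars are 1 standard error of edgeR's fit on 3 against 3 libraries) in the 3 comparisons; filled points are DEGs and open points are not. Both brain comparisons lie right of 1 for the chain genes, *Cd74*, *H2-DMb1*, *H2-Oa* and *Ciita*, *H2-DMa* stays near 0, and *H2-Oa* and *H2-Ob* lie left of -1 between the blood groups.

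Compared per length, as CPM per 1000 bases of annotated exon, *Cd74* led in the brain at 6150 ± 1788 (SD, n = 3), followed by *H2-Ab1* at 4206 ± 614, *H2-Eb1* at 1492 ± 131 and *H2-Aa* at 953 ± 106. No neighbours among these 4 overlapped. *H2-DMb1* at 384 ± 25.0 and *H2-DMa* at 237 ± 3.90 came next, then *H2-DMb2* at 28.8 ± 2.46. *Ciita*, *H2-Oa* and *H2-Ob* closed the order at 12.2 ± 2.65, 10.5 ± 0.927 and 9.63 ± 1.62, and their libraries overlapped. In stroke blood the order was led by *Cd74* at 1741 ± 542 and *H2-Ab1* at 553 ± 201, and *H2-DMa* at 230 ± 51.1 overlapped *H2-Eb1* at 208 ± 78.2 and *H2-Aa* at 168 ± 57.6. Exon lengths were the union over annotated transcripts, so genes with many rarely used exons are placed too low.

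Ratios of counts within a library do not depend on how libraries are scaled, and they show how the balance of the members differed. *H2-Aa* stood at 0.470 ± 0.0133 counts for each count of *H2-Ab1* in sham blood (SD, n = 3), at 0.480 ± 0.0103 in stroke blood and at 0.357 ± 0.0177 in the brain, so the brain libraries lay below all blood libraries. *H2-Eb1* to *H2-Ab1* overlapped across the groups, from 0.204 to 0.280. *Cd74* to *H2-Ab1* was between 1.90 and 2.55 in the 6 blood libraries and between 0.801 and 1.24 in the brain. *H2-DMb1* to *H2-DMa* was between 0.309 and 0.463 in blood and between 0.953 and 1.11 in the brain. *H2-Oa* to *H2-DMa* was between 0.00435 and 0.0127 in sham blood and between 0.00177 and 0.00268 in stroke blood. In the brain it was between 0.0213 and 0.0248, the only ratio of these 5 in which none of the 3 groups overlapped another. The other ratio of an H2-O to an H2-DM gene, *H2-Ob* to *H2-DMb1*, differed in this. It was between 0.0571 and 0.159 in sham blood and between 0.0161 and 0.0388 in stroke blood. In the brain it was between 0.0401 and 0.0616, overlapping sham blood. *Ciita* to *H2-Ab1* was lower in the brain although both levels were higher there: it was between 0.0166 and 0.0459 in blood and between 0.0106 and 0.0127 in the brain.

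**Figure D3:**
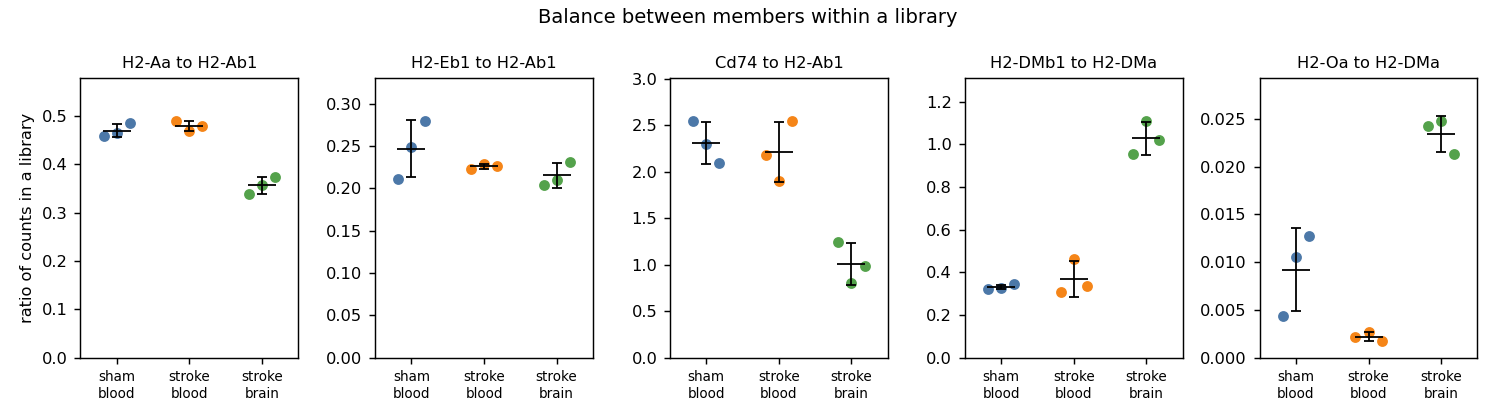
Ratio of the counts of 2 members within each library (linear axes from 0); points are libraries, and the bar and whiskers are the mean and SD (n = 3). *H2-DMb1* to *H2-DMa* was at most 0.463 in blood and at least 0.953 in the brain, and *Cd74* to *H2-Ab1* was lower in the brain than in every blood library.

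Of 28 other genes of the pathway, 27 could be tested in the brain against stroke blood. There 10 rose and 1 fell, against 13.1% and 7.86% of all genes tested, and their median log2 fold change was 0.32. Over sham blood 8 of 27 rose and 0 fell (median 0.19), against 9.75% and 3.67% of all genes tested. Between stroke and sham blood 0 of 26 were DEGs, and 4 had an unadjusted p below 0.05, a share near that over all genes given above. Among proteases and reductases that prepare antigen and trim the invariant chain, 4 of 7 rose in both comparisons of the brain. *Ctsd*, which encodes cathepsin D, rose by 3.06 over stroke blood (standard error 0.26, adjusted p = 5.85e-05), and *Lgmn*, the asparagine endopeptidase, rose by 2.19 (standard error 0.15, adjusted p = 2.64e-05). *Ctsl* rose by 2.08 and *Ctsb* by 1.28. *Ctss*, the main protease for the last steps of invariant chain trimming in bone marrow-derived antigen-presenting cells, was high in all groups, with libraries between 3378 and 5696 CPM, and had a log2 fold change of 0.12 over stroke blood (standard error 0.17, adjusted p = 0.611). *Sppl2a*, the membrane protease that clears the remaining invariant chain fragment, fell by 1.33 relative to stroke blood (standard error 0.23, adjusted p = 0.00279), with 177 to 235 CPM in stroke blood and 61.8 to 119 CPM in the brain. Against sham blood its log2 fold change was -0.72 (adjusted p = 0.0607). *Ifi30*, a lysosomal thiol reductase, had an adjusted p of 0.0236 over stroke blood at a log2 fold change of -0.64, short of the size asked of a DEG.

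Of the factors that bind the X and Y boxes, 1 of 7 rose over stroke blood, near the 13.1% of all genes that rose, and 0 of 7 over sham blood. *Rfx5*, a subunit of the X box complex, had a log2 fold change of 1.08 over stroke blood (standard error 0.34, adjusted p = 0.0389) and 0.30 over sham blood (adjusted p = 0.514), with 2.10 to 2.83 CPM in stroke blood, 3.36 to 5.50 CPM in sham blood and 5.38 to 6.43 CPM in the brain. The other 6, *Rfxap*, *Rfxank*, *Nfya*, *Nfyb*, *Nfyc* and *Creb1*, had log2 fold changes between -0.25 and 0.43 over stroke blood. Control of surface turnover was uneven. *Cd83*, which encodes a protein that protects class II molecules from ubiquitination by MARCH1, was at 9.63 to 38.1 CPM in sham blood, 9.39 to 16.6 CPM in stroke blood and 735 to 2140 CPM in the brain, highest in brain replicate 1, and rose by 6.46 over stroke blood (standard error 0.49, adjusted p = 3.83e-05). *March1*, the ligase itself, was no DEG for the size of its log2 fold changes, -0.87 over stroke blood (standard error 0.19, adjusted p = 0.00756) and -0.76 over sham blood (adjusted p = 0.0211). Its brain libraries, at most 64.9 CPM, lay below all of those in blood, at least 83.8 CPM. The exons of *March1* and *Rfx5* overlap other transcripts on the opposite strand, as do those of *Rfxank*, *Ctsb*, *Ctsl*, *Ifi30*, *Irf1* and *Jak1*. Those of *Ctsd*, *Ctsl* and *Ifng* overlap other transcripts on the same strand.

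Along the interferon gamma route, 3 of 9 genes rose in the brain over each blood group, *Ifng*, *Jak2* and *Prdm1*. Of all genes tested, 13.1% rose over stroke blood and 9.75% over sham blood. *Ifng*, the cytokine itself, had 8 to 63 counts in a blood library and 104 to 325 in the brain, and rose by 2.61 over stroke blood (standard error 0.70, adjusted p = 0.0203). *Jak2*, a kinase of its receptor, rose by 2.30 (standard error 0.26, adjusted p = 0.000327), and *Prdm1*, a repressor known to silence *Ciita* in plasma cells, by 2.02 (standard error 0.19, adjusted p = 0.000108). *Irf1*, a transcription factor induced by the cytokine, had a log2 fold change of 0.32 over stroke blood (adjusted p = 0.158), and the receptor genes *Ifngr1* and *Ifngr2* had -0.07 and -0.14. *H2-Eb2*, a minor class II gene, had 1 to 4 counts in a stroke blood library, 2 to 15 in sham blood and 15 to 26 in the brain, and rose over stroke blood by the test (adjusted p = 0.027) but not over sham blood (adjusted p = 0.494).

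**Figure D4:**
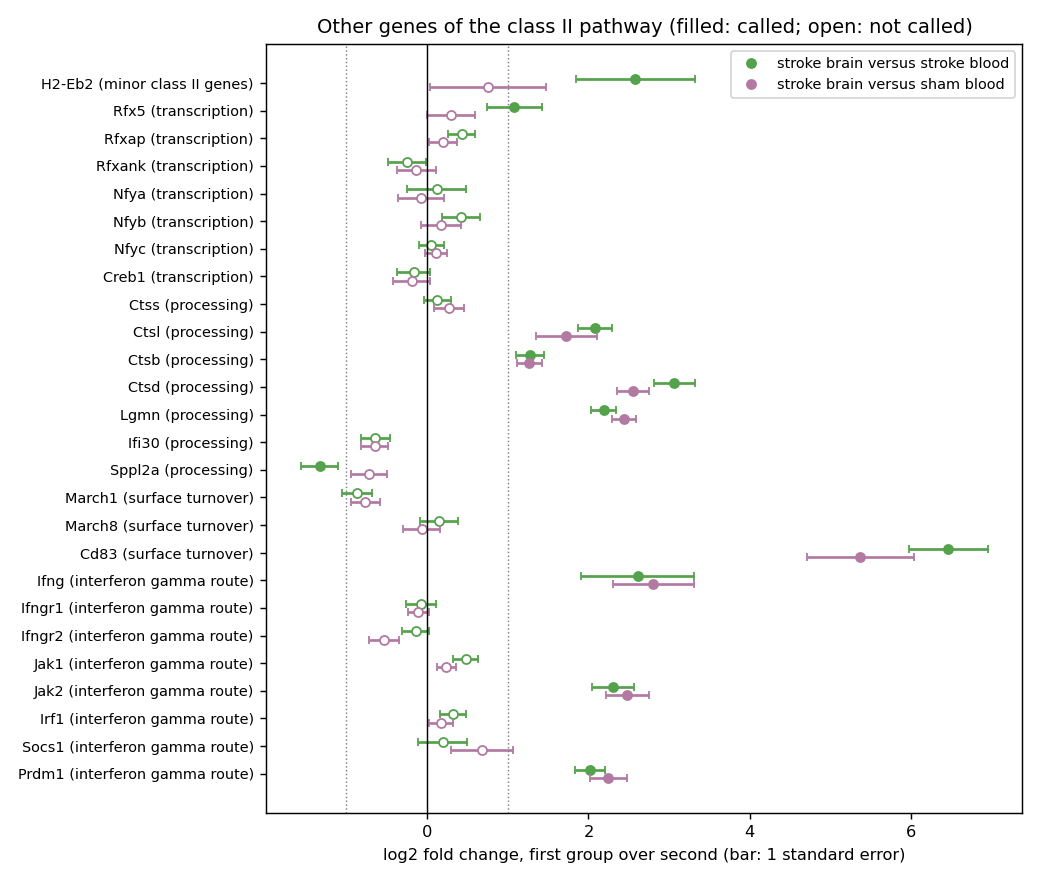
Log2 fold change (horizontal axis; bars are 1 standard error of edgeR's fit) of 26 of the other pathway genes that could be tested, in the brain over stroke blood and over sham blood; filled points are DEGs, and the role of each gene stands beside its name. *Cd83* lies far to the right in both comparisons, at 6.46 and 5.37, and the X and Y box factors lie near 0 apart from *Rfx5* over stroke blood.

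Markers of other cells that carry class II molecules were measured beside the members. The antigens selected for in the sort were present as transcripts in every library: *Itgam* (CD11b) and *Ptprc* (CD45) had at least 2943 counts in each. Of 7 monocyte and macrophage markers, 2 fell and 0 rose in the brain over each blood group. Of all genes tested, 7.86% fell relative to stroke blood and 3.67% relative to sham blood. *Ly6c2* fell by 1.64 and *Lyz2* by 1.33 relative to stroke blood (adjusted p = 0.000342 and 0.000523). *Itgam* and *Ccr2* were lower in the brain without overlap but were no DEGs, with log2 fold changes of -0.59 and -0.80 over stroke blood. *Csf1r* went the other way and was no DEG, with a log2 fold change of 0.26 over each blood group (adjusted p = 0.367 over stroke blood and 0.296 over sham blood). Its brain libraries overlapped stroke blood and lay above sham blood without overlap. The list took 10.5% of counts in sham blood, 10.1% in stroke blood and 4.80% in the brain, most of it *Lyz2*, and its part in the class II levels was not tested. Of 10 dendritic cell markers, 8 rose in the brain over stroke blood and 5 over sham blood, against 13.1% and 9.75% of all genes. Their summed level was 122 to 367 CPM in sham blood, 132 to 259 CPM in stroke blood and 815 to 1098 CPM in the brain. *Cd209a* gave the most to the brain sum, at 446 to 524 CPM. It was no DEG over sham blood (adjusted p = 0.113), where its libraries ran from 31.0 to 263 CPM. *Ccl22* had 0 counts in all 6 blood libraries (at most 0.162 CPM allowed) and 595 to 1156 counts in the brain, and *Fscn1* had 0 counts in sham blood. *Itgax*, which encodes the CD11c that the gate excluded, was at 9.68 to 13.2 CPM in sham blood, at most 19.4 CPM in stroke blood and 78.9 to 141 CPM in the brain, and *Zbtb46*, a transcription factor of conventional dendritic cells, went from at most 2.73 CPM in blood to between 19.8 and 28.6 CPM in the brain. *Clec9a* was at most 2.35 CPM in any library and rose by 3.49 over stroke blood (adjusted p = 0.00967), from 1 to 4 counts to 16 to 44. Over sham blood it was no DEG (adjusted p = 0.102). *Batf3* lay on the other side: at 22.1 to 32.2 CPM in stroke blood and at most 19.0 CPM in the brain it was lower without overlap, with a log2 fold change of -0.83 (adjusted p = 0.0181), and *Xcr1* was no DEG over either blood group (adjusted p = 0.209 and 0.187). The part of dendritic cells in the class II levels was not tested.

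All 7 microglia markers rose in the brain over each blood group, where 13.1% of all genes rose over stroke blood and 9.75% over sham blood. Their summed level was 134 to 204 CPM in the 6 blood libraries. It was 1100, 1684 and 3028 CPM in the 3 brain libraries in order of that sum. *Sall1*, a microglial transcription factor, had 0 counts in all 6 blood libraries. In the same 3 libraries the summed class II chains stood at 17054, 17260 and 13587 CPM. The dendritic cell markers summed to 1098, 815 and 826 CPM there. The order over 3 libraries was not tested. Of 5 markers of border-associated macrophages 4 could be tested and 3 rose over each blood group, with sums of 91.2 to 265 CPM in the brain and 29.6 to 145 CPM in blood. *Lyve1*, the marker that could not be tested, was at most 1 count in a blood library and 4 to 301 counts in the brain. *Pf4* went the other way and was no DEG. Its log2 fold change was -0.72 over stroke blood (adjusted p = 0.0757) and -0.48 over sham blood (adjusted p = 0.603). On average it was at 73.1 CPM in sham blood, 84.2 CPM in stroke blood and 56.7 CPM in the brain. Neutrophil markers summed to 333 to 538 CPM in the brain and to at most 76.7 CPM in blood, with *Ly6g* at 14 counts or fewer in every library. T and NK cell markers summed to 343 to 596 CPM in the brain and 110 to 360 CPM in blood. Of these 6 markers, 1 rose over each blood group, near the share of all genes that rose. The part of these cells in the class II levels was not tested.

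Several B cell and T cell markers had lower values in stroke than in sham blood. Of the 7 B cell markers, 0 were DEGs in edgeR, 5 had an unadjusted p below 0.05 and 4 were lower without overlap. Their median log2 fold change was -1.49 against -0.03 over all genes. Of all 12664 genes tested, 1581 had an unadjusted p below 0.05 and 10.5% were lower without overlap. *Cd79a*, which encodes a chain of the B cell receptor complex, was at 38.6 to 91.9 CPM in sham blood. It was at 14.2 to 32.8 CPM in stroke blood and 10.8 to 30.2 CPM in the brain. In the brain 0 of 6 B cell markers tested were DEGs over stroke blood and 5 of 7 fell relative to sham blood. Of all genes tested, 3.67% fell in the brain relative to sham blood. The sum of the list, 684 to 983 CPM in sham blood, 591 to 726 CPM in stroke blood and 461 to 733 CPM in the brain, is mostly that of *Ighm*. Of 6 T and NK cell markers 0 were DEGs between the blood groups and 3 were lower without overlap, against 10.5% of all genes. *Cd3e*, *Cd3d* and *Trac*, T cell receptor complex genes, had log2 fold changes of -1.96, -1.74 and -1.55. *Nkg7*, *Klrb1c* and *Ncr1* overlapped between the blood groups, with log2 fold changes of 0.22, 0.16 and 0.20. *Ccr7*, a homing receptor of the dendritic cell list that lymphocytes also carry, had a log2 fold change of -2.04, again without overlap. *Batf3* of the same list went the other way, with a log2 fold change of 1.02, higher in stroke blood without overlap. *Cd3e*, *Cd3d*, *Trac*, *Ccr7* and *Batf3* each had an adjusted p of 0.285. The part of these cells in the difference between the blood groups, or in the levels of *H2-Oa* and *H2-Ob* in any group, was not tested.

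**Figure D5:**
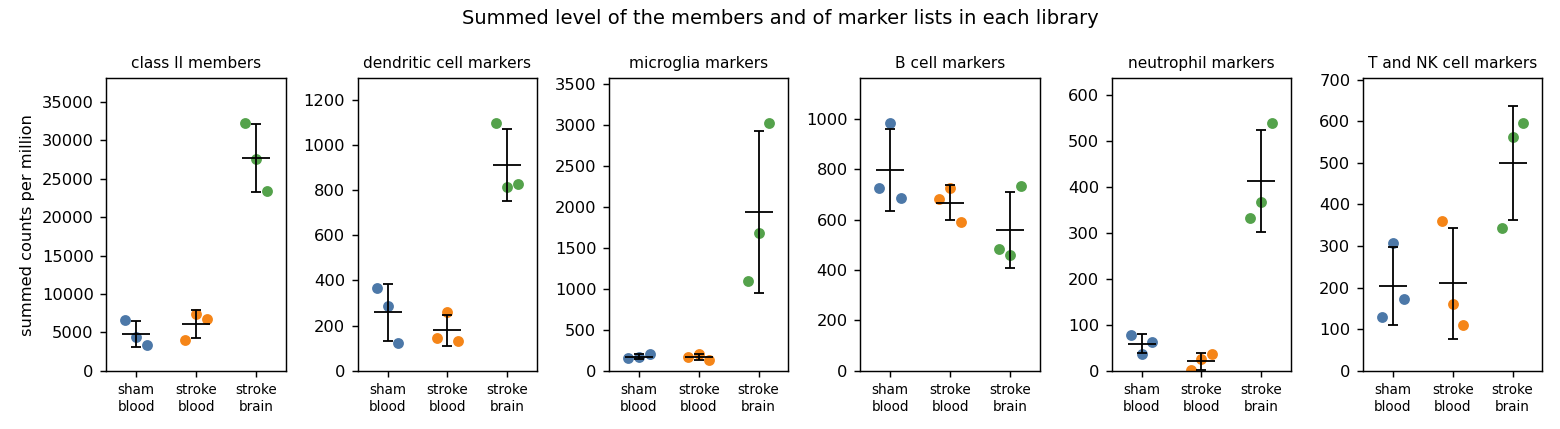
Summed CPM of the 10 class II genes and of 5 marker lists in each library (linear axes from 0, a scale of their own); points are libraries, and the bar and whiskers are the mean and SD (n = 3). Dendritic cell, microglia and neutrophil markers are higher in all 3 brain libraries than in blood, as the class II genes are, and B cell markers are not.

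Among 7693 genes with a mean of at least 10 CPM, the members were also placed by how closely their profile over the 9 libraries, on the log2(CPM + 1) scale and centred per gene, followed the mean profile of *H2-Aa*, *H2-Ab1*, *H2-Eb1* and *Cd74*. The 4 genes are part of that mean and their own ranks, 1, 3, 2 and 15, are given only for scale. *H2-DMb1* ranked 41, *Ciita* 96, *H2-DMb2* 806, *H2-Ob* 1096 and *H2-DMa* 2476, and *H2-Oa* was below the level limit. The 10 other genes nearest to the mean profile, with root mean square differences from 0.317 to 0.380 on the log2 scale over the 9 libraries, were *Tmcc3*, *Dusp1*, *Havcr2*, *Lgmn*, *Tnip3*, *Mgat4a*, *Junb*, *Plk2*, *Gm6377* and *Rab7b*. Of these *Lgmn* was in the pathway list. *Dusp1* and *Junb*, immediate early genes, were the most abundant of them, at 3466 and 3105 CPM in the brain on average and at most 723 and 614 CPM on average in a blood group.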

How the data were processed

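RNA of sorted monocytes/macrophages was sequenced from 9 libraries, 3 per group, made with the SMART-Seq HT and Nextera XT kits and paired-end 75-base reads, without molecular identifiers. HISAT2 (genome GRCm38) and HTSeq were the mapping and counting tools of the authors, who deposited raw counts without normalization; versions, annotation release and strand setting are not given in the sources used here. Groups and replicate numbers came from the labels. The labels call the libraries biological replicates.

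Each comparison was fitted to its 2 groups by the quasi-likelihood method of edgeR 4.0.16 (R 4.3.3), with TMM scaling and the default filter on low counts; the standard error is the log2 fold change over the square root of F. CPM uses total counts, and the limit of 3 counts reflects counting error alone. Symbols, exons and transcripts were taken from GENCODE M21, in which 53620 identifiers were found, 52019 at the same coordinates, and exon lengths were limited to the span in the files. Tables and figures used Python 3.11.15, numpy 2.4.6, pandas 2.3.3 and matplotlib 3.10.9. The fits were tested on simulated data with 200 changed genes. Members and lists were chosen with earlier results of these data known; every member and pathway gene could be named, and 1 pathway gene, counted in its list, is not reported here by name. The nearest genes were the 10 with the smallest root mean square difference. Alternatives were DESeq2 1.42.0, other scalings, filters and thresholds, a fit over all 9 libraries, a block for the replicate number and each library left out.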

Additional observations from a re-analysis of the deposited data

How the results depend on the processing

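Of 130 alternative values for the log2 fold changes of the 10 members in each comparison, 126 between the blood groups, 128 for brain versus stroke blood and 130 for brain versus sham blood kept their direction and their side of the thresholds. Brain versus stroke blood gave 9 members higher and 0 lower in every alternative; brain versus sham blood gave 7 higher, or 6 at an adjusted p below 0.01. The log2 fold change of *H2-DMa* over stroke blood turned to 0.0453 with library size only and ranged from -0.27 to 0.0753 with a library left out, the latter without stroke blood replicate 3. Between the blood groups, members lower numbered 2 with DESeq2, 1 with no filter and 0 to 1 with a library left out (1 without sham blood replicate 1); all genes called numbered 135 with DESeq2, 160 with no filter, 0 at an adjusted p below 0.01 and 0 to 16 with a library left out (16 without sham blood replicate 1). Genes called at an adjusted p below 0.01 numbered 1793 for brain versus stroke blood, where 2771 were called, and 792 for brain versus sham blood, where 1748 were called; with a library left out the latter ranged from 1146 (without sham blood replicate 3) to 1883. Library size only moved the median log2 fold change of all genes from 0.06 to 0.22 over stroke blood and from 0.01 to 0.13 over sham blood. Same-numbered libraries did not deviate together (correlations from -0.0685 to 0.073); with the replicate number as a block, 2634, 1571 and 1 genes and 9, 7 and 0 members were called for brain versus stroke blood, brain versus sham blood and stroke versus sham blood. Members with 23 to 127 counts in stroke blood, *H2-Oa* and *H2-Ob*, are limited most by depth.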
